A study of Mus musculus with 48 samples.

Results

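The potassium channel genes are the Kcn family of the mouse, and they were followed here in RNA of the striatum of Huntington's disease model mice with and without mutations of the mismatch repair gene Msh3. Members were all rows of the deposited count table whose symbol starts with Kcn, letters and a number, and that had at least 10 counts in 7 or more of the 48 libraries. Of 98 symbols of that form 84 passed, among 48795 genes in the table. They comprise 81 protein-coding genes and 3 noncoding RNAs (Kcnd3os, Kcnmb4os2 and Kcnq1ot1), and all 84 were among the 19975 genes tested. Just inside the limit were Kcnj13 (10 libraries), Kcne2 and Kcnq1 (13 each) and Kcnn4 (23), and just outside it were Kcnab3os (4 libraries), Kcnk7 (3) and Kcnv2 (1). The wild-type group (WT) had 7 libraries, Q140 (heterozygous for an Htt knock-in allele with an expanded CAG repeat) 8, Msh3+/- 9, Msh3-/- 8, Q140 Msh3+/- 8 and Q140 Msh3-/- 8. All mice were on the C57BL/6 background and 6 months old, and 24 libraries came from each sex. Libraries are named by group, sex letter and number (WT F3). The labels do not say that each library is a separate mouse, so the p-values measure the spread between libraries.

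Potassium channels let potassium leave or enter the cell and so set the resting potential, the shape of the action potential and the firing rate of neurons. Their pore-forming alpha subunits are voltage-gated, inwardly rectifying, of the tandem-pore leak type or opened by calcium or sodium, and auxiliary subunits change how the pores open and where they go. Medium spiny neurons (MSNs), the main neurons of the striatum, are held at a very negative resting potential by inward rectifiers and delayed in firing by A-type channels. MSH3 takes part in the repair of DNA loops and is known to promote the growth of CAG repeats in somatic tissue, which is why its loss is studied in Huntington's disease models.

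Library totals ran from 33.7 to 52.8 M counts (median 45 M). Msh3 RNA separated the Msh3 genotypes without overlap but was higher, not lower, in the mutants: 29.1 to 33.2 counts scaled to library size (CPM) in WT and Q140, 68.2 to 85.3 in the 2 heterozygous groups and 111 to 135 in the 2 homozygous groups. RNA level therefore does not check the loss of the protein, and groups are named here by their labelled genotype. The striatal label was checked against 10 shared MSN markers, all of them measured, which summed to 14135 to 15901 CPM in WT. Their sum ran from 8252 to 12302 for Q140, 11147 to 13431 for Q140 Msh3+/- and 12108 to 14298 for Q140 Msh3-/-. In bulk tissue fewer cells of a type and less RNA per cell cannot be told apart. Q140 Msh3+/- F1 (4359 CPM), WT M2 (637) and WT M1 (268) stood apart in 8 summed choroid plexus and ependyma markers, while the other 45 libraries were at or below 98.3. Msh3+/- F5 had the highest sum of cortical neuron markers (187 CPM).

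Levels between genes were compared in FPKM, fragments scaled by gene length and library size. In WT the auxiliary subunit Kcnip2, the calcium-binding partner of the Kcnd channels, had the highest level at 98.6 ± 8.5 FPKM (SD, n = 7). It was followed by the inward rectifier Kcnj4 at 68.5 ± 4.11, the beta subunit Kcnab1 at 55.4 ± 2.52 and the A-type channel Kcnd2 at 51.9 ± 2.13. Every WT library of Kcnip2 lay above every library of Kcnj4, and Kcnj4 above Kcnab1, whereas the libraries of Kcnab1 and Kcnd2 overlapped. The beta subunit Kcnab2 (49.5 FPKM), the sodium-activated Kcnt1 (40.8), Kcnh3 (40.6), the glial inward rectifier Kcnj10 (38.1) and the leak channel Kcnk1 (37.8) were also among the first 10, which together made up 50.2% of the summed level. Kcnf1 (14.3 ± 2.36 FPKM) was the highest of the silent subunits. Summed over the 81 coding members the level was 1040 ± 26.3 FPKM (SD) for WT, 1052 ± 22.6 for Msh3+/- and 1046 ± 13.1 for Msh3-/-. For Q140 the sum was 958 ± 39.9, for Q140 Msh3+/- 1007 ± 24.3 and for Q140 Msh3-/- 1033 ± 15 (SD). KCNQ and KCNH genes summed to 183 ± 6.17 FPKM for WT and 156 ± 11.4 for Q140, while the silent subunits summed to 51.6 ± 3.42 and 56.4 ± 2.55, the 1 class whose sum was higher in Q140. Libraries of WT and Q140 overlapped in both of these class sums. Within the silent class Kcng1 had means of 10.7 FPKM in WT and 17.1 in Q140, and Kcns2 of 8.61 and 6.95. The sum therefore does not describe each of its members. FPKM is scaled by library totals, without TMM factors.

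**Figure D1:**
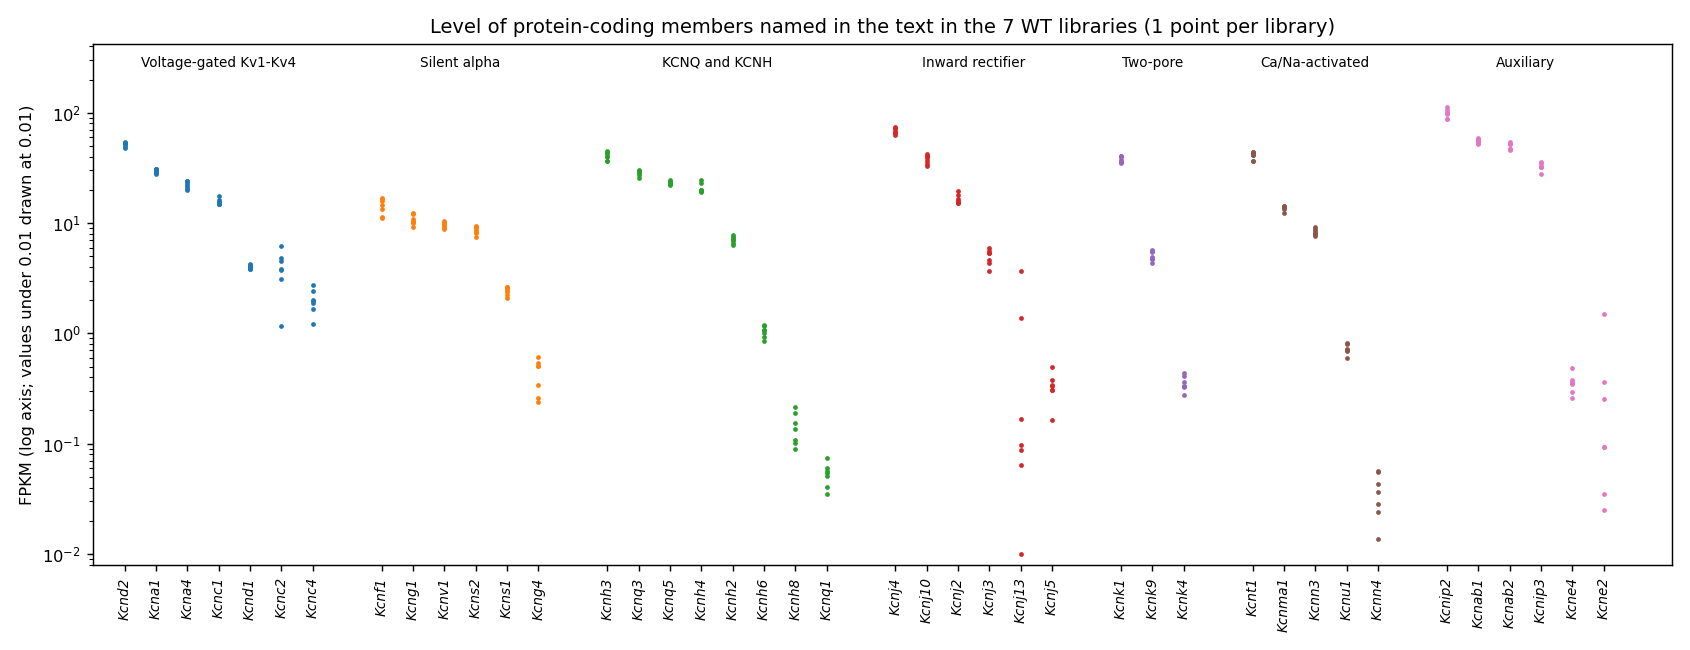
Level of protein-coding members named in the text in the 7 WT libraries, grouped by class and ordered by mean within a class; each point is 1 library and the FPKM axis is logarithmic. Kcnip2 (98.6 FPKM) and Kcnj4 (68.5) lie highest, and Kcnj13 and Kcne2 spread over the widest range.

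In Q140 against WT, 22 of the 84 members fell and 5 rose. The largest falls among well-expressed members were of Kcnh4 (log2 change -0.66) and Kcnab1 (-0.46), and the largest rise was of Kcng1 (0.60). These 27 calls are 32.1% of the members, where edgeR called 19.9% of all genes tested, 9.64% as higher and 10.2% as lower. An adjusted p (Benjamini-Hochberg over all genes tested) under 0.05 in the edgeR quasi-likelihood test is what is meant by a call, and "rose" and "fell" are used for calls. The median log2 change was -0.09 over the members and 0.01 over all genes. The calls lay mostly among the more abundant members: of the 42 members with the higher mean levels 20 (47.6%) were called against 30.4% of all genes in that range, and of the other 42 members 7 (16.7%) against 13.4%. The split of directions depended on scaling: with library totals in place of TMM factors 12 members were called higher and 14 lower, and limma on log2(FPKM + 0.1) gave 10 and 13. Of the 27 calls 19 were also made by totals, and 17 of the 25 with a value on FPKM. Scaling by totals moved the median of all genes by 0.0806. In 8 members the WT and Q140 libraries did not overlap (3.52% of all genes did so): Kcng1 and Kcnu1 were higher, and 6 were lower, among them Kcnab1, Kcnh3, Kcnh4 and Kcnq5.

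**Figure D2:**
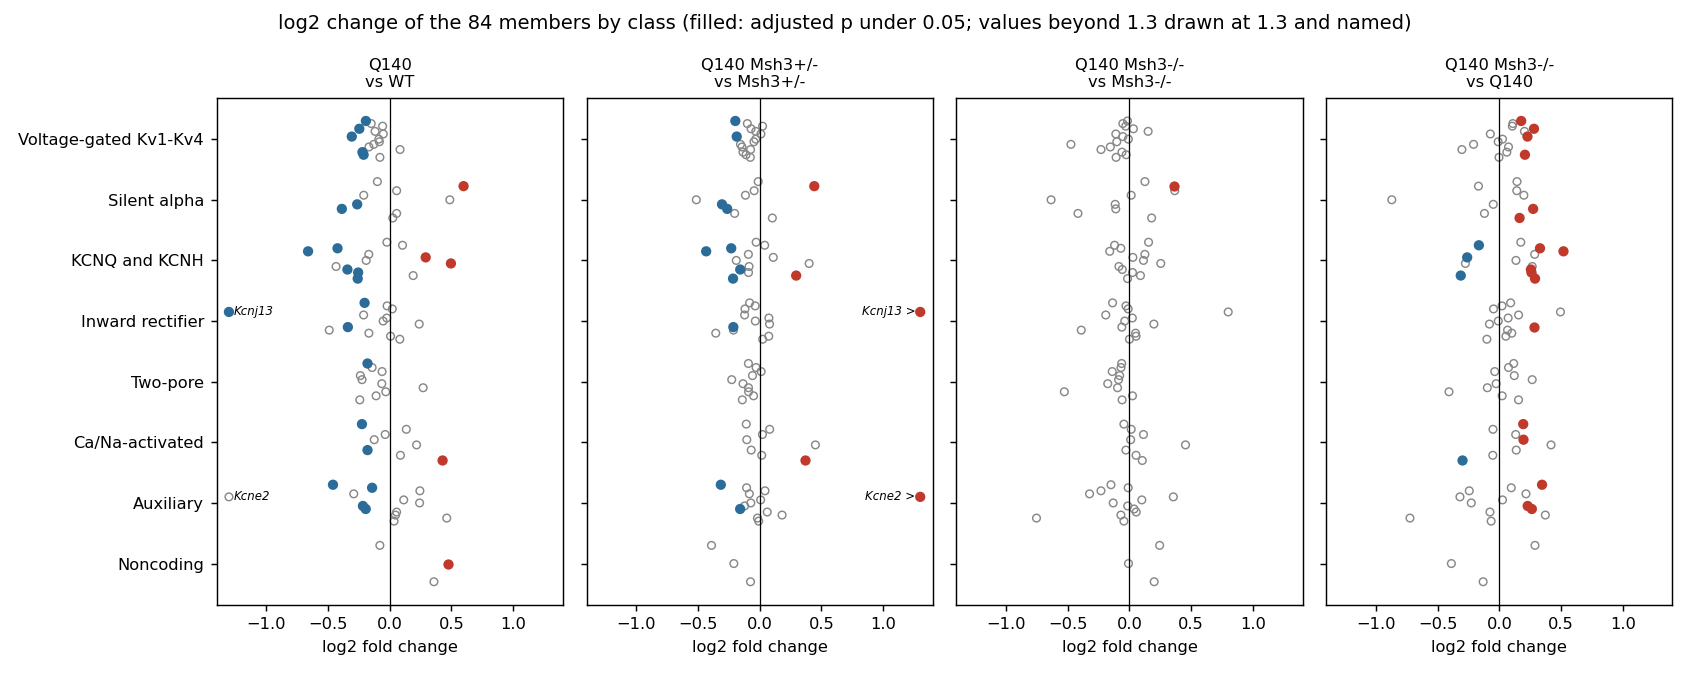
log2 fold change of each of the 84 members (1 point per gene, rows by class) in 4 comparisons; filled points passed adjusted p under 0.05 (red higher, blue lower) and values beyond 1.3 are drawn at 1.3 and named. In Q140 against WT 22 filled points lie left of 0 and 5 right of it, and in Q140 Msh3-/- against Msh3-/- 1 does, Kcng1; the first and the last panel share the Q140 libraries.

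Of the 15 voltage-gated alpha subunits that form channels alone, apart from the KCNQ and KCNH genes, 5 fell in Q140 and none rose. Kcna4, an A-type channel of axons (chr2:107290639-107298502), ran from 98.98 to 119 CPM in WT (median 109.7) and from 80.9 to 108 in Q140 (median 89.1). The groups overlapped, with Q140 F3 the highest of its group, and the log2 change was -0.25 ± 0.05 (SE; adjusted p = 0.000211). Kcnd2, the dendritic A-type channel, ran from 248 to 283 CPM (median 278) in WT and from 201 to 276 (median 236) in Q140, a change of -0.21 ± 0.05 (adjusted p = 0.00117). Kcnd1 (-0.22) and Kcna1 (-0.19) also fell, the latter losing its call without Q140 F1 or Q140 F4 (adjusted p up to 0.0666). The 10 members of the class that were not called included Kcnc1 (-0.08 ± 0.06), Kcnc2 (-0.13 ± 0.27) and Kcnc4 (0.08 ± 0.14), of a subfamily known from fast-spiking neurons.

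The 9 silent subunits form no channel alone and modify delayed rectifier channels by joining them. Of these 1 rose, Kcng1, and 2 fell, Kcns1 and Kcns2. Kcng1 (chr2:168260117-168281736) had a lowest, median and highest CPM of 41.1, 48.1 and 56.5 in WT and of 62.1, 73.2 and 86.6 in Q140. The groups did not overlap, and the change was 0.60 ± 0.07 (adjusted p = 4.61e-08). Kcns2 ran from 33.3 to 41.5 CPM in WT (median 38.9) and from 24.8 to 37.5 in Q140 (median 28.5), where Q140 F3 was the highest, a change of -0.39 ± 0.07 (adjusted p = 5.52e-05). Kcns1, far less abundant, went from a median of 6.88 CPM to 5.59 (-0.26 ± 0.07, adjusted p = 0.00623), a call lost with scaling by library totals and on FPKM. Kcnf1, the most abundant of the class, had medians of 72.3 and 62.8 CPM with overlapping libraries and was not called (-0.10 ± 0.08, adjusted p = 0.425).

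Of the 13 KCNQ and KCNH genes, which carry the muscarine-sensitive M-current and the ether-a-go-go family currents, 5 fell and 2 rose. Kcnh4, an ELK-type channel (chr11:100740376-100759942), had a lowest, median and highest CPM of 77.1, 80.3 and 99.2 in WT and of 44.9, 47.0 and 68.4 in Q140. Even the highest Q140 library, M4, was below the lowest of WT, and the change was -0.66 ± 0.08 (adjusted p = 6.34e-08). Kcnh3, of the same type (chr15:99224861-99242817), ran from 132 to 163 CPM in WT (median 148) and from 97.5 to 131 in Q140 (median 109.9), a change of -0.42 ± 0.06 (adjusted p = 1.65e-07). Its gene overlaps Mcrs1 on the opposite strand. Subunits of the M-current were among the falls. Kcnq5 (chr1:21398403-21961942) had medians of 181 CPM in WT and 151 in Q140, without overlap (-0.26 ± 0.04, adjusted p = 1.54e-05). Kcnq3 had medians of 419.5 and 358 CPM with Q140 F2, F3 and M4 inside the WT range (-0.25 ± 0.06, adjusted p = 0.00134). The 2 that rose were scarce. Kcnh6, an ERG-type channel, had medians of 3.80 CPM in WT and 4.66 in Q140 (0.29 ± 0.08, adjusted p = 0.00734). Kcnh8 had medians of 0.631 and 0.857 CPM (0.50 ± 0.16, adjusted p = 0.0208), and lost its call without any 1 of Q140 M1, WT M1, WT M2 or WT M3 (adjusted p up to 0.0727).

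Among the 13 inward rectifiers, which hold MSNs at rest and clear potassium in glia, 3 fell and none rose. Kcnj4 (chr15:79483714-79505241), of the strongly rectifying kind, had a lowest, median and highest CPM of 135, 148 and 161 in WT and of 106, 116 and 136 in Q140. The groups met only at the edge, where Q140 M4 passed the lowest WT library, and the change was -0.34 ± 0.05 (adjusted p = 3.56e-06). Kcnj10, the potassium channel of astrocytes and oligodendrocytes, ran from 183 to 236 CPM in WT (median 208) and from 163 to 204 in Q140 (median 182), a change of -0.20 ± 0.06 (adjusted p = 0.0183). Its call was lost without Q140 F4 or WT M1 (adjusted p up to 0.0604), under library totals, on FPKM, without a sex term, with plate column as a covariate and without the 3 libraries high in choroid plexus markers. The 7 astrocyte markers summed to 4402 to 4736 CPM in WT and 3240 to 4107 in Q140, 3 of them fell, and their part in the result for Kcnj10 was not tested. Kcnj13, the third, is described with the choroid plexus markers. The 10 not called ran from -0.49 (Kcnj5) to 0.24 (Kcnj3), and Kcnj3, a G-protein-coupled rectifier, was called higher under 7 of 14 other settings.

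Among the 10 tandem-pore genes, which carry background leak currents, 1 fell: Kcnk1 had medians of 84.2 CPM in WT and 77.4 in Q140 with overlapping libraries (-0.18 ± 0.06, adjusted p = 0.0153). The other 9 lay between -0.24 (Kcnk9) and 0.27 (Kcnk4). Of the 8 genes classed by symbol as calcium- and sodium-activated 2 fell and 1, Kcnu1, rose. The class does not mean that Kcnu1 itself is opened by calcium or sodium. Kcnma1, the large-conductance calcium-activated channel, had medians of 98.1 and 89.0 CPM (-0.22 ± 0.07, adjusted p = 0.0126), and Kcnt1 medians of 399 and 336 (-0.18 ± 0.05, adjusted p = 0.00835). Under library totals neither these 2 nor Kcnk1 was called. Kcnu1 (chr8:25849623-25937939), known mainly as the potassium channel of sperm, ran from 2.28 to 3.05 CPM in WT (median 2.71) and from 3.13 to 4.39 in Q140 (median 3.62). All Q140 libraries were above all WT libraries, and the change was 0.43 ± 0.09 (adjusted p = 0.000481).

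Of the 13 auxiliary subunits 4 fell and none rose. Kcnab1, a beta subunit that speeds inactivation of Kcna channels (chr3:65109384-65378223), had a lowest, median and highest CPM of 445, 486 and 520.0 in WT and of 304, 352 and 399.6 in Q140. The groups did not overlap (-0.46 ± 0.05, adjusted p = 1.75e-08). The gene is 1 of 39 of the 84 members overlapped on the opposite strand, with Kcnh3, Kcnk1 and others of those with values here. Whether counting used the strand is not given in the sources used here. On the same strand 17 members are overlapped, among them Kcnab1, Kcnip3, Kcnq5 and Kcnd2, and a strand setting would not separate those genes. Kcnip2 had medians of 351 CPM in WT and 292 in Q140, with Q140 F3, F4 and M4 (up to 360.1) inside the WT range (-0.22 ± 0.05, adjusted p = 0.00184). Kcnip3, a calcium sensor of the same family, had medians of 118 and 104 CPM (-0.19 ± 0.05, adjusted p = 0.00558). Kcnab2 changed least of the 4 (-0.14 ± 0.04, adjusted p = 0.0185), and its call was lost without Q140 M1, WT M1 or WT M3 (adjusted p up to 0.0623). Of the 3 noncoding RNAs Kcnmb4os2 rose from a median of 0.841 CPM to 1.03 (0.47 ± 0.17, adjusted p = 0.0381), a call lost in 7 of 15 fits that left out 1 library. Kcnq1ot1 (0.36) and Kcnd3os (-0.08) were not called.

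The Msh3 mutations alone moved no member past the threshold. In Msh3+/- against WT 0 of 84 members were called by edgeR (0.01% of all genes) and 0 by DESeq2, with 7 (8.33%, against 4.72% of all genes) at an unadjusted p under 0.05 and 0 without overlap (0.015% of all genes). In Msh3-/- against WT the counts were 0 (0.03% of all genes), 0 and 6 (7.14%, against 4.04% of all genes), and 0 members separated the groups (0.0551% of all genes). The median log2 change of the members was 0.009 and 0.005.

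On the Msh3+/- background the Q140 change was measured in libraries separate from those of WT and Q140. In Q140 Msh3+/- against Msh3+/-, 11 members fell and 5 rose (19% of the members). Of all genes 6.45% were called, 2.96% higher and 3.49% lower, and 4 members had no overlap (0.586% of all genes): Kcng1, Kcnab1, Kcnq5 and Kcns1. The 11 are 50% of the 22 that fell in Q140 against WT, and all 11 are among those 22, with Kcna1, Kcnab1, Kcnh3, Kcnh4, Kcnip3, Kcnj4, Kcnq5, Kcns1 and Kcns2 in both. The same overlap over all genes is not given here, so that of the members cannot be compared with it. Kcnh4 had medians of 88.7 CPM in Msh3+/- and 63.5 in Q140 Msh3+/- (-0.43 ± 0.08, adjusted p = 0.000275). Kcnab1 had medians of 508 and 412 CPM with no overlap between the groups (-0.31 ± 0.05, adjusted p = 6.68e-05). Of the 5 risers Kcng1 (0.44) and Kcnu1 (0.37) had also risen in Q140 against WT, and Kcnj13 and Kcne2 rested on 1 library. With library totals the split was 7 higher and 9 lower. Against WT itself, Q140 Msh3+/- had 8 members lower and 1 higher (10.7% of the members), where 3.76% of all genes were called, 1.53% higher and 2.23% lower. Kcns1 (-0.40), Kcnh4 (-0.37), Kcnab1 (-0.24), Kcnh3 (-0.24), Kcns2 (-0.24), Kcnj10 (-0.21) and Kcnd1 (-0.20) were among the lower and Kcng1 (0.50) higher. Kcng1, Kcnd1, Kcnh4 and Kcns1 had no overlap (0.736% of all genes). By library totals 5 were lower and 3 higher, and on FPKM 5 and 2.

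On the Msh3-/- background 1 member was called between Q140 and its control. In Q140 Msh3-/- against Msh3-/-, Kcng1 was 0.36 ± 0.07 higher (adjusted p = 0.0189), 1.19% of the members where 0.0751% of all genes were called, 0.0501% higher and 0.025% lower. It had no overlap (0.0651% of all genes), and 13 members (15.5%, against 6.72% of all genes) had an unadjusted p under 0.05. Its call was lost without Q140 Msh3-/- F3, Q140 Msh3-/- F4, Msh3-/- F3, Msh3-/- M2 or Msh3-/- M4 (adjusted p up to 0.0752), and without the filter on low counts. Against WT, Q140 Msh3-/- differed in 2 members (2.38% of the members), where 0.2% of all genes were called, 0.11% higher and 0.0901% lower. Kcng1 had no overlap (0.17% of all genes). Kcng1 was higher (0.43 ± 0.07, adjusted p = 0.00129) and Kcns1 lower, with medians of 5.39 and 6.88 CPM (-0.31 ± 0.07, adjusted p = 0.0411). Without Q140, Kcns1 was -0.20 ± 0.07 in Msh3-/- against WT, and it was -0.12 ± 0.07 in Q140 Msh3-/- against Msh3-/-, neither called. The Kcns1 call was lost when any 1 of 10 of the 15 libraries was left out, and by library totals and on FPKM 2 members were higher and 0 lower. Kcnh4, with a median of 78.7 CPM in Q140 Msh3-/-, differed from WT by -0.14 ± 0.08 (adjusted p = 0.672).

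Between the Q140 groups, 17 members had higher and 4 lower levels with Msh3-/- than with intact Msh3 (25% of the members), where 11.9% of all genes were called, 6.85% higher and 5.04% lower. Of the 42 members with the higher mean levels 18 (42.9%) were called, against 19.6% of all genes in that range. Of the other 42 members 3 (7.14%) were called, against 7.14%. This comparison shares the Q140 libraries with Q140 against WT. Kcnh4 was 0.52 ± 0.08 higher (adjusted p = 1.49e-05): its libraries ran from 63.6 to 87.0 CPM in Q140 Msh3-/- against 44.9 to 68.4 in Q140, so that the groups overlapped. Kcnab1 was 0.34 ± 0.05 higher, Kcnh3 0.33 ± 0.05, Kcnq5 0.29 ± 0.04, Kcna4 0.28 ± 0.05, Kcnj4 0.28 ± 0.05, Kcns2 0.27 ± 0.07 and Kcnip3 0.26 ± 0.05. No member separated the groups completely (0.946% of all genes did). Kcnn3, a small-conductance calcium-activated channel (0.19 ± 0.06, adjusted p = 0.0164), and the silent subunit Kcnv1 (0.16 ± 0.05, adjusted p = 0.0238) were also higher; in Q140 against WT their changes were -0.12 and 0.03. Among the lower were Kcnu1 (-0.30 ± 0.09, adjusted p = 0.0184), Kcnh6 (-0.26 ± 0.08, adjusted p = 0.0215) and the ERG-type Kcnh2 (-0.17 ± 0.05, adjusted p = 0.0323). By library totals 13 were higher and 10 lower, and on FPKM 13 and 7. Kcnh2 lost its call in 7 of 16 fits that left out 1 library: Q140 F1, F2, M1 and M3 and Q140 Msh3-/- F3, M2 and M4 (adjusted p up to 0.101). Kcnh6 lost it without Q140 Msh3-/- F2, M3 or M4 (up to 0.0629), Kcnv1 without Q140 F1 or M1 (up to 0.0815) and Kcnn3 without Q140 F1 (0.0542).

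In Q140 Msh3+/- against Q140, 7 members were higher and 1 lower (9.52% of the members), where 1.98% of all genes were called, 1.28% higher and 0.696% lower, and 0 members had no overlap (0.1% of all genes). Kcnh4 (0.29 ± 0.08, adjusted p = 0.044), Kcnab1 (0.22 ± 0.05, adjusted p = 0.0219), Kcnq3 (0.22 ± 0.06, adjusted p = 0.0331), Kcna4 (0.21 ± 0.05, adjusted p = 0.0157) and Kcnq5 (0.16 ± 0.04, adjusted p = 0.0339) were among the 7, with Kcnj13; Kcng4 was lower. These calls were not stable: the count was 0 without Q140 F1 or Q140 M1, 1 without Q140 F2, 2 without Q140 Msh3+/- F1 or Q140 Msh3+/- M4, 12 without Q140 Msh3+/- M3, 13 without Q140 F3 or Q140 Msh3+/- F4, 16 without Q140 M4, and 0 when only these 2 groups were fitted. Q140 Msh3-/- against Q140 Msh3+/- gave 0 members by edgeR (0.015% of all genes, 0.00501% higher and 0.01% lower), 1 by DESeq2 (lower) and 9 (10.7%, against 5.87% of all genes) at an unadjusted p under 0.05. For Kcnh4 the medians of Q140, Q140 Msh3+/- and Q140 Msh3-/- were 47.0, 63.5 and 78.7 CPM, and for Kcnab1 352, 412 and 449.

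The difference itself between the Q140 change with and without Msh3 was tested as an interaction over WT, Q140, Msh3-/- and Q140 Msh3-/-. It was called for 8 members (9.52%, where 2.39% of all genes were, 1.67% higher and 0.721% lower), each with a positive difference. All 8 fell in Q140 against WT, and none of them was called in Q140 Msh3-/- against Msh3-/-, where 0.0751% of all genes were. The interaction contains the difference of Q140 from WT, so these falls are not a separate result. The difference in log2 change was 0.50 ± 0.11 for Kcnh4 (adjusted p = 0.0118), 0.35 ± 0.08 for Kcnh3 (adjusted p = 0.00866) and 0.31 ± 0.08 for Kcnab1 (adjusted p = 0.0194). It was 0.28 ± 0.07 for Kcna4 (adjusted p = 0.0189) and for Kcnj4 (adjusted p = 0.0295), and 0.24 ± 0.06 for Kcnq5 (adjusted p = 0.0211). The changes within Msh3-/- were -0.16 ± 0.08 for Kcnh4, -0.07 ± 0.05 for Kcnh3, -0.15 ± 0.05 for Kcnab1, 0.03 ± 0.05 for Kcna4, -0.06 ± 0.05 for Kcnj4 and -0.02 ± 0.04 for Kcnq5. Without the 3 libraries high in choroid plexus markers, an alternative chosen after seeing the data, 5 of the 8 were called, and Kcna4 and Kcnj4 were among those that were not (adjusted p = 0.0553 and 0.0685). Leaving out Q140 F1, Q140 M1, WT F3, Q140 Msh3-/- F2 or Q140 Msh3-/- M1 lost Kcnj4 (adjusted p up to 0.0624). On library totals 8 members were higher and 1 lower, and on FPKM 8 and 2. The 10 shared MSN markers fell in Q140 (10 of 10, median -0.53) and 10 of 10 were called higher with Msh3-/- among the Q140 groups (median 0.39), and their part in these 8 results was not tested. The interaction with Msh3+/- was called for 0 members by edgeR (0% of all genes), 1 by DESeq2, and 8 (9.52%, against 8.12% of all genes) had an unadjusted p under 0.05.

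**Figure D3:**
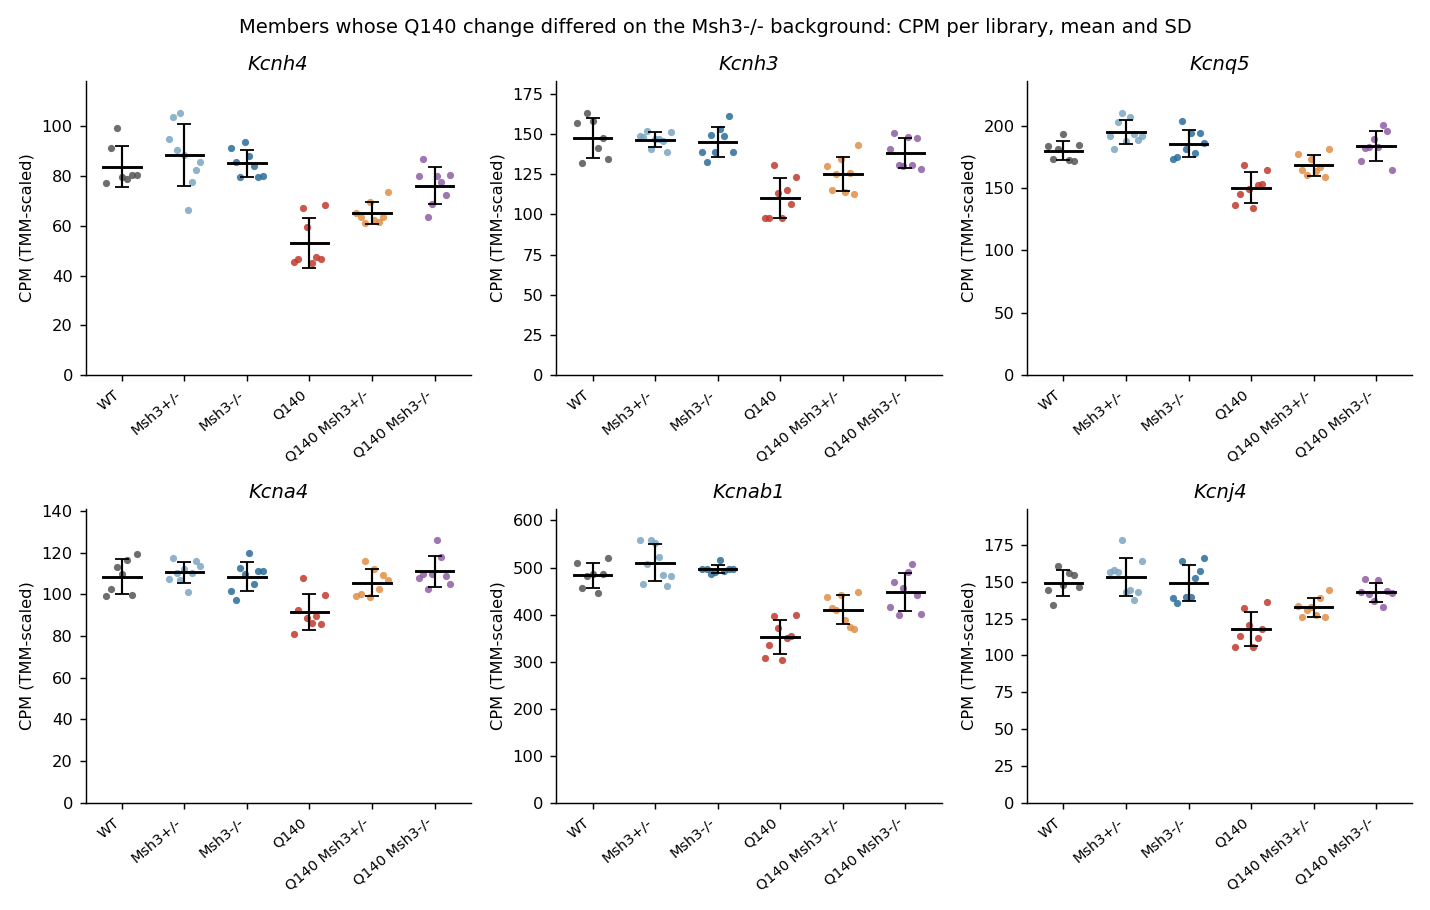
CPM per library in the 6 groups for 6 of the 8 members with an interaction of Q140 with Msh3-/-; each point is 1 library, the thick line is the mean and the bar the SD, and the axes start at 0. In each panel the Q140 group is lowest: the Kcnh4 medians are 80.3 in WT, 47.0 in Q140 and 78.7 in Q140 Msh3-/-.

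Sequence upstream of the RefSeq transcript start (GRCm38.p6) is shown, as a description, for the 3 of these 8 members with a single listed start. Of the 84 members 61 matched an entry, and Kcnh3 is named only. Kcnab1 and Kcnq5 have several starts. Each sequence reads 5′ to 3′ on the gene's strand, ends at the base before the start, and has GC boxes (GGGCGG, either strand) in capitals. For Kcnh4 the 164 bases next to the start lie in an annotated exon of GENCODE M21 and are left off.
Kcnh4, chr11:100759943-100760028, minus strand: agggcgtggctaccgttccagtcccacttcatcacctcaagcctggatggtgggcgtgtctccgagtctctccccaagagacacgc
Kcna4, chr2:107290339-107290588, plus strand: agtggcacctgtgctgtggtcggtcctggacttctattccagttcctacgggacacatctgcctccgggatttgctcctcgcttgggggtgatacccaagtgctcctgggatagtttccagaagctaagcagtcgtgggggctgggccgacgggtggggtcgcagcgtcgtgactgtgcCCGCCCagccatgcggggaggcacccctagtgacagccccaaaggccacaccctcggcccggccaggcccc
Kcnj4, chr15:79505242-79505491, minus strand: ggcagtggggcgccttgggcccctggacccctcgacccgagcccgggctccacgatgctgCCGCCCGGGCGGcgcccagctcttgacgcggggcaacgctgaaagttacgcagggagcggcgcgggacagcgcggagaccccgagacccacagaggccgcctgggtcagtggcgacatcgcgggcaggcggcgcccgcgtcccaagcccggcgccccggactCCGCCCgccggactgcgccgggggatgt

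The stretches have no TATAAA and are rich in G and C: 61.6% for Kcnh4, 65.2% for Kcna4 and 77.2% for Kcnj4. Over the 250 bases before a listed start, at either strand, GGGCGG occurred in 39 of the 61 members with an entry (63.9%). It occurred in 35.4% of 27025 genes, and the median GC content was 60.4% in the members and 52.4% over all genes. A gene counted if any of its listed starts held the letters. Of the 61 members 47 have 1 entry, and the number of starts was not matched. CCAAT occurred in 37.7% of the members and 37.5% of all genes, CACGTG in 8.2% and 6.86%, and TATAAA in 4.92% and 14.3%. TGACGTCA and GCGTGGGCG occurred in none of the 61 members and in 1.77% and 0.622% of all genes. The 5 members with CACGTG were Kcnab1, Kcne4, Kcnh4, Kcnj2 and Kcnn4, of which Kcnab1 and Kcnh4 are in the set of 8. The printed bases of Kcnh4 hold neither CACGTG nor GGGCGG, and both matches depend on the 164 exon bases left off. A match is a description of these letters only, and motifs found in GC-rich windows share letters with it; the part of base composition was not tested.

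Kcng1 was the 1 member called in all 5 comparisons of a Q140 group with a group without Q140. The lowest, median and highest CPM were 41.1, 48.1 and 56.5 in WT, 42.6, 50.7 and 59.0 in Msh3+/- and 46.9, 51.2 and 55.0 in Msh3-/-. They were 62.1, 73.2 and 86.6 for Q140, 61.3, 68.6 and 77.5 for Q140 Msh3+/- and 57.3, 63.6 and 78.5 for Q140 Msh3-/-. The libraries did not overlap in any of the 5 comparisons, of which 3 share the WT libraries. Kcng1 in Q140 Msh3-/- was -0.17 ± 0.07 from Q140 (adjusted p = 0.113, called by library totals and on FPKM), and the interaction with Msh3-/- was -0.24 ± 0.10 (adjusted p = 0.237).

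Kcnu1 had medians of 3.62 CPM for Q140, 3.26 for Q140 Msh3+/- and 3.01 for Q140 Msh3-/-, against 2.59 to 2.78 in the 3 groups without Q140. It was higher than the matched control in Q140 (0.43) and Q140 Msh3+/- (0.37) and not called in Q140 Msh3-/- (0.10 ± 0.09, adjusted p = 0.868), and its interaction with Msh3-/- was not called (-0.33 ± 0.13, adjusted p = 0.186). Kcnh6 had a median of 4.66 CPM in Q140 and medians from 3.72 to 4.31 in the other 5 groups.

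**Figure D4:**
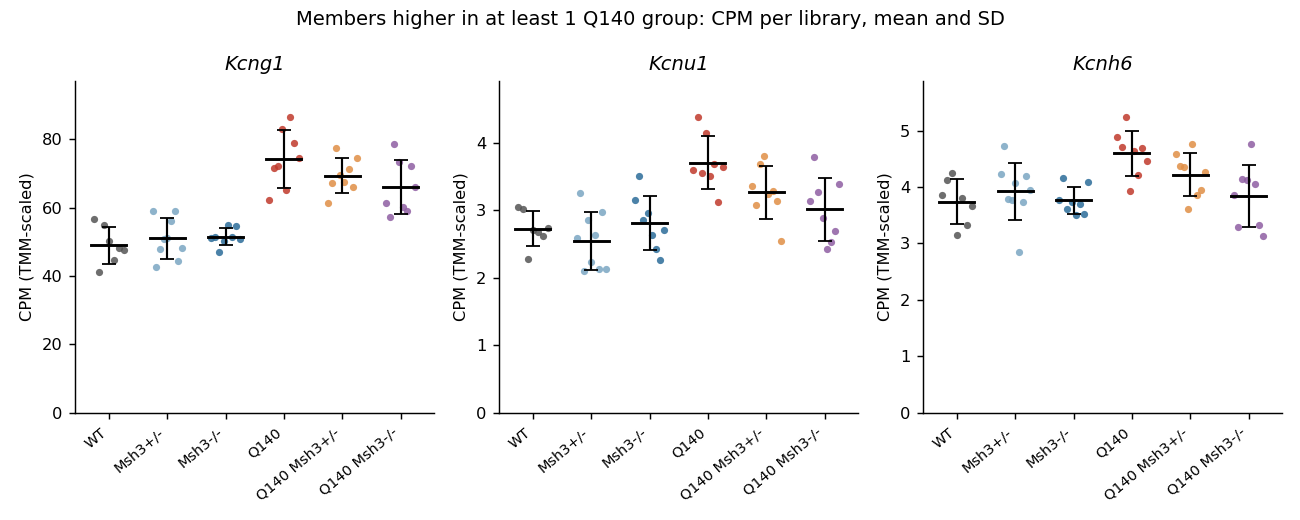
CPM per library in the 6 groups for Kcng1, Kcnu1 and Kcnh6; each point is 1 library, the thick line is the mean, the bar the SD, and the axes start at 0. The lowest Kcng1 library of the 3 Q140 groups (57.3 CPM, Q140 Msh3-/-) is above all WT and Msh3-/- libraries, while 1 group, Msh3+/-, reaches 59.0.

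Kcnj13 and Kcne2, channel subunits known from the choroid plexus, were singled out after their values were seen. Kcnj13 was at 32.0 CPM in Q140 Msh3+/- F1, 4.64 in WT M2 and 1.82 in WT M1, and between 0 and 0.532 in the other 45 libraries. Kcne2 was at 19.4 CPM in Q140 Msh3+/- F1, 2.65 in WT M2 and 0.655 in WT M1. Those 3 libraries are the 3 highest in choroid plexus and ependyma markers. Kcnj13 was called lower in Q140 than in WT (-3.70 ± 1.34, adjusted p = 0.0454) and higher in Q140 Msh3+/- than in Q140 (5.21 ± 1.28, adjusted p = 0.0263) and Msh3+/- (4.22 ± 1.11, adjusted p = 0.0147). Kcne2 was called higher in Q140 Msh3+/- than in Msh3+/- (4.21 ± 1.01, adjusted p = 0.00723). Without Q140 Msh3+/- F1 the last 3 calls were lost (adjusted p = 0.823, 0.835 and 0.962), the first of them also without Q140 F1, F2 or M1, and without WT M1 or WT M2, or any 1 of 7 of the 8 Q140 libraries, the call against WT was (adjusted p up to 0.271).

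**Figure D5:**
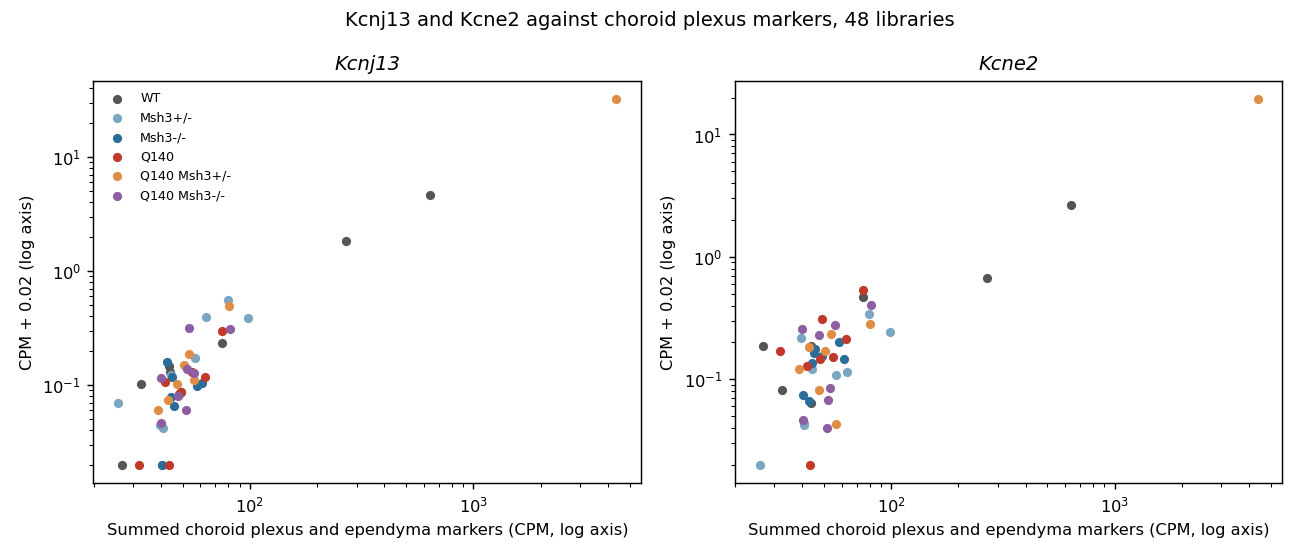
CPM of Kcnj13 (left) and Kcne2 (right), plus 0.02 so that 0 can be drawn, against the summed CPM of 8 choroid plexus and ependyma markers in the 48 libraries, coloured by group; both axes are logarithmic. Q140 Msh3+/- F1 (4359 CPM of markers), WT M2 (637) and WT M1 (268) are the 3 highest libraries on both axes.

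A list of 31 other genes, of which 29 were tested, held proteins that bind or steer these channels and the Hcn genes, which encode a separate family of pacemaker cation channels. In Q140 against WT 13 of the 29 fell and 3 rose (median -0.09), where 10.2% of all genes fell and 9.64% rose. In Q140 Msh3-/- against Q140 10 were higher and 1 lower, where 6.85% and 5.04% of all genes were. By library totals, and also on FPKM, the splits were 10 lower and 7 higher in the first and 7 higher and 3 lower in the second comparison. Rgs7bp, an anchor of the RGS7 complex that speeds the closing of G-protein-coupled rectifiers, had medians of 743 CPM in WT and 529 in Q140 (-0.46 ± 0.08, adjusted p = 1.99e-05). Gnb5, of the same complex, fell by 0.33 (adjusted p = 6.61e-06) and the scaffold Dlg4, which binds Kcna and Kcnj tails, by 0.25 (adjusted p = 1.31e-05). Dpp10, an auxiliary protein of Kcnd channels, rose from a median of 65.6 CPM to 85.5 (0.37 ± 0.06, adjusted p = 1.5e-05), and the pacemaker channel gene Hcn3 (0.34 ± 0.07, adjusted p = 0.000482) and the calcium-activated channel partner Lrrc55 (0.27 ± 0.07, adjusted p = 0.00281) rose too.

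Females and males differed in 3 members, all higher in females (3.57% of the members, 2.93% of all genes, 1.65% higher and 1.28% lower). Kcnj10 ran from 162.6 to 253.8 CPM over the 24 female libraries (median 201.4) and from 161.3 to 227.9 over the 24 male ones (median 181.5), so the sexes overlapped (0.16 ± 0.04, adjusted p = 0.0094). It was the 1 of the 3 called in each of the 48 fits that left out a library. Kcnu1 (0.18 ± 0.05, adjusted p = 0.0471) and Kcnip3 (0.10 ± 0.03, adjusted p = 0.0495) were called in 15 and 12 of those 48.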

How the data were processed

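RNA of the corpus striatum was sequenced from 48 libraries. Per the submitters' processing notes the authors used STAR 2.7.5c, SAMtools 1.10 and HTSeq 0.12.3 with GRCm38; their roles, the annotation release and the strand setting are not given in the sources used here. The deposited table holds raw read counts per gene, and the authors also deposited FPKM values, whose gene lengths are not given in the sources used here. From the counts, 19975 genes were kept (edgeR's filterByExpr, minimum count 10) and fitted over all 48 libraries with TMM scaling and sex as a covariate, by edgeR 4.0.16 (quasi-likelihood, Benjamini-Hochberg, 13 comparisons). Alternatives included DESeq2 1.42.0 and limma 3.58.1. CPM used TMM-scaled totals. Values are given in full for the 10 largest changes and 4 largest rises in Q140 against WT, up to 4 interactions, each class's most abundant member and 3 sex differences; other members were named freely. Members and lists were chosen with earlier results of these data known. On simulated data for Q140 against WT (19975 genes) 43.9% of genes changed 1.2-fold and 78.8% changed 1.5-fold were recovered. At 2-fold it was 79.4%, with 7 false among 142 calls. Each fold was given to 66 to 68 genes, against 3969 called in the data, so these shares do not give the recovery of the real test. Common biological variation was 10.3%. Values of some members are not reported here by name; counts and sums over members include them.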

Additional observations from a re-analysis of the deposited data

Results flagged for a closer look

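Of 120 groups of libraries tested over 20 members, 10 (8.33%) had a library set apart from its group, and chance flags about 1 in 20 (5%). The share of 8.33% cannot be compared with that rate. Kcnj13 and Kcne2, which supply several of the flags, were singled out after their values were seen. Kcnj13 was far above its group in Q140 Msh3+/- F1 (32.0 CPM) and WT M2 (4.64), and Kcne2 in Q140 Msh3+/- F1 (19.4 CPM) and WT M2 (2.65). Kcnj13 was also flagged in Q140 M3, at 0.278 CPM with the next library at 0.11, both near the floor. Kcnj10 was high in Msh3+/- F1 (254 CPM) and Q140 Msh3-/- F2 (240 CPM), Kcnab1 in Msh3-/- M1 (516 CPM) and Kcnd2 in Msh3-/- F3 (303 CPM). Kcnh8 was low in Msh3+/- F1 (0.37 CPM).

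The log2 change in Q140 differed between the Msh3-/- and the intact background in 8 members by the interaction term, of which 6 are given: the difference was 0.50 for Kcnh4, 0.35 for Kcnh3, 0.31 for Kcnab1, 0.28 for Kcna4, 0.28 for Kcnj4 and 0.24 for Kcnq5.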

How the results depend on the processing

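The count of members called in Q140 against WT was 27 and ran from 20 to 28 over other settings. For Q140 Msh3+/- against Q140 it was 8, and 4 with no filter on low counts, 0 with only the groups compared, 2 with plate column as a covariate, 1 without Q140 Msh3+/- F1 and Msh3+/- F5, and 1 without the 3 libraries high in choroid plexus markers; it was 12 with DESeq2, 11 with a filter of at least 1 CPM in 24 libraries and 10 by library totals and upper quartiles. For Q140 Msh3-/- against WT it was 2, and 1 with no filter, with the replicate block, with plate column, without WT M2 and without those 3 libraries. For Q140 Msh3-/- against Msh3-/- it was 1, and 0 with no filter. For female against male it was 3, and 1 with RLE scaling, library totals, no filter, limma on log2(FPKM + 0.1), without WT M2 and without those 3 libraries. DESeq2 called 1 member, not 0, in Q140 Msh3-/- against Q140 Msh3+/- and in the interaction with Msh3+/-. The interaction with Msh3-/- gave 8, 5 without the 3 libraries, and 10 with DESeq2, on FPKM and without WT M2. In Q140 Msh3+/- against Msh3+/-, Kcnj13 reversed to -0.54 and Kcne2 to -0.021 without Q140 Msh3+/- F1 and Msh3+/- F5, and Kcnj13 to -0.35 without the 3 libraries. Apart from the left-out libraries, the cause was not tested. Leaving out 1 library at a time gave 23 to 30 calls in Q140 against WT, 0 to 16 in Q140 Msh3+/- against Q140, 16 to 26 in Q140 Msh3-/- against Q140, 6 to 11 in the interaction with Msh3-/-, 0 to 1 in that with Msh3+/-, 14 to 16 in Q140 Msh3+/- against Msh3+/-, 6 to 10 in Q140 Msh3+/- against WT, 1 to 2 in Q140 Msh3-/- against WT, 0 to 1 in Q140 Msh3-/- against Msh3-/- and 1 to 3 in female against male. Replicate numbers did not pair libraries (correlations of -0.253 to 0.3, 7 of 75 over 0.1); with the replicate block 27 members were called in Q140 against WT, 6 higher and 21 lower. Codes of the libraries share stems, some of them across groups, and grouping by stem was not modelled. Upper-quartile scaling and leaving out the 3 libraries were chosen after seeing the data. How depth limits scarce members was not simulated.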
